A study of Mus musculus with 8 samples.

Results

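Aquaporins are membrane proteins that form narrow pores for water, and 2 genes of this family were measured in cultured mouse retinal astrocytes (AC): Aqp1 and Aqp5. They are every aquaporin among the 13575 genes of the table, taken by symbol (Aqp followed by a number) out of 11 such genes in the GENCODE mouse annotation. Aqp1 itself was chosen by the difference of its level between the genotype labels. That difference is therefore given as a description, without a test. Aqp5 entered by its symbol alone and was tested.

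RNA of retinal AC was sequenced as 4 Cyp1b1+/+ libraries (labelled wild type) and 4 libraries labelled Cyp1b1-/-, which were meant to lack Cyp1b1, a cytochrome P450 enzyme. Per the study's methods, the cells came from pooled retinas of 1 litter of 4-week-old mice of both sexes, and endothelial cells were removed with CD31 magnetic beads. Both groups were grown with fetal bovine serum, heparin, endothelial growth supplement and interferon-γ, and no treatment was compared. How the 4 replicates of a label were obtained is not given in the sources used here, so the spread behind each p-value may be technical. The strain entry was C57BL/6 for the Cyp1b1+/+ libraries and C57BL/7, C57BL/8 or C57BL/9 for the others, and these entries were not used.

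Aquaporin pores pass water along osmotic gradients, and some members (the aquaglyceroporins) also pass glycerol. AQP1 is a water channel known from red blood cells, kidney proximal tubule and choroid plexus, and in the eye from photoreceptors, ciliary epithelium and cornea. AQP5 is known from salivary and lacrimal glands, lung and corneal epithelium, where it carries water into secretions. The water channel best known in retinal glia is AQP4, which is anchored at the endfeet of astrocytes and Müller cells by the dystrophin complex.

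The labels were checked first. Cyp1b1 RNA went against them, with normalized values (scaled, rounded counts per library) from 749 to 882 under the Cyp1b1+/+ label and from 1276 to 1368 under the Cyp1b1-/- label. A value sums the reads of the whole gene, and which part of Cyp1b1 was deleted is not given in the sources used here. Xist, the RNA of the inactive X chromosome, ran from 21084 to 26863 under the first label and from 34 to 46 under the second, while the Y-linked gene Ddx3y was at 0 to 1 and at 1230 to 1324. Sex-linked expression and the genotype label therefore cannot be told apart in any comparison below. By these genes each label reads as a single sex, whereas the methods describe mice of both sexes, and the reason is not known. Of 13 astrocyte markers, 7 were measured, and Gfap, S100b and Aldh1l1 had no row in the table used here. Replicate 2 labelled Cyp1b1-/- stood apart, with 499 genes more than 2-fold higher than in the rest of its label, against 23 to 35 genes for the other 7 libraries. The summed normalized values, 19261729 to 20134745 per library, reflect the common scaling. The study gives an average read number per label but not the raw depth of each library, so no counting intervals are given.

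The start regions of the measured aquaporins are shown because they are the stretches from which the 2 RNAs begin, 250 bases before to 50 bases after each start site in RefSeq (build GRCm38.p6). The Aqp1 window is chr6:55336049-55336348 and the Aqp5 window is chr15:99590778-99591077, both on the plus strand. Both are printed 5′ to 3′, and capitals mark GC boxes (GGGCGG, or CCGCCC where the match is on the other strand) and cores of the xenobiotic response element (GCGTG, or CACGC on the other strand). That core lies in the element through which the aryl hydrocarbon receptor acts on genes such as Cyp1b1.
Aqp1: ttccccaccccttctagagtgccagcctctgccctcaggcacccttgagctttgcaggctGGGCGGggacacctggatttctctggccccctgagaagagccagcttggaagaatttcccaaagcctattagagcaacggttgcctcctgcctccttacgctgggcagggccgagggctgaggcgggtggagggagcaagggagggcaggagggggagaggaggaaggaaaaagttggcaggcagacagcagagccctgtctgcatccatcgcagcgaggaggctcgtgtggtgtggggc
Aqp5: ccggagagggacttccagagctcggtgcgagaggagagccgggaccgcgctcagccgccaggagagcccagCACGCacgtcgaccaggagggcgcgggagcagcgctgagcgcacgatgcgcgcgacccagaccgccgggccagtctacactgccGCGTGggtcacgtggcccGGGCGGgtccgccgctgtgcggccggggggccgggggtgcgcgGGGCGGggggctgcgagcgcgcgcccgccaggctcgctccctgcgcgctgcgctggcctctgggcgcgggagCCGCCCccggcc

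The 2 windows differ in composition. Bases G and C made up 62.7% of the Aqp1 window and 79.7% of the Aqp5 window, against a median of 52.7% over 32851 start windows of the same length. By that measure 76.9% of windows lay below Aqp1 and 98.8% below Aqp5. The Aqp1 window held 8 CG dinucleotides, close to the median of 7, and the Aqp5 window held 46. The RefSeq start of Aqp1 lies 133 bases before the start of the gene in GENCODE. For Aqp5 the GENCODE start is the earlier one, at -246 from the RefSeq start, so nearly all of its window lies within the GENCODE gene. Both windows thus depend on the annotation.

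Both strands were searched for 7 short motifs. Aqp1 had 1 GC box, starting at -190 from the start site, and 1 E-box (CANNTG), which read CACCTG at -181. Aqp5 had 3 GC boxes at -77, -34 and 39, an E-box that read CACGTG at -87, and 2 xenobiotic response element cores at -179 and -95. None of these matches overlapped. The Aqp1 window held no xenobiotic response element core, which occurred in 32.4% of all windows, and neither window held a CCAAT box (CCAAT, 37.4% of windows), a TATA box (TATAAA, 13.6%), an AP-1 site (TGANTCA, 7.81%) or the tonicity element core TGGAAA (21.4%). A GC box occurred in 35.7% and an E-box in 72.3% of windows. These are matches of letters in a window and describe no binding.

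Aqp1 (ENSMUSG00000004655) lies on chromosome 6 of GRCm38 from 55336432 to 55348555 on the plus strand, with 1 annotated transcript of 4 exons and 2627 bases, and no other annotated gene overlaps it. In Cyp1b1+/+ replicates 1 to 4 it stood at 2352, 2737, 2614 and 2482. It stood at 323, 335, 368 and 382 in replicates 1 to 4 labelled Cyp1b1-/-. All 4 Cyp1b1+/+ libraries lay far above all 4 others, and the groups did not overlap. Mean values of 2546 ± 166 and 352 ± 27.6 (SD, n = 4 each) gave a ratio of 7.23. The lowest Cyp1b1+/+ library was 6.16 times the highest library labelled Cyp1b1-/-, and the most distant pair differed 8.47-fold. On the scale of log2(value + 1), the difference (labelled Cyp1b1-/- minus Cyp1b1+/+) was -2.85, with a standard error of 0.06. Since these values chose the gene, no test is attached to them. In bulk RNA, fewer cells that carry the transcript and less transcript per cell cannot be told apart.

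**Figure D1:**
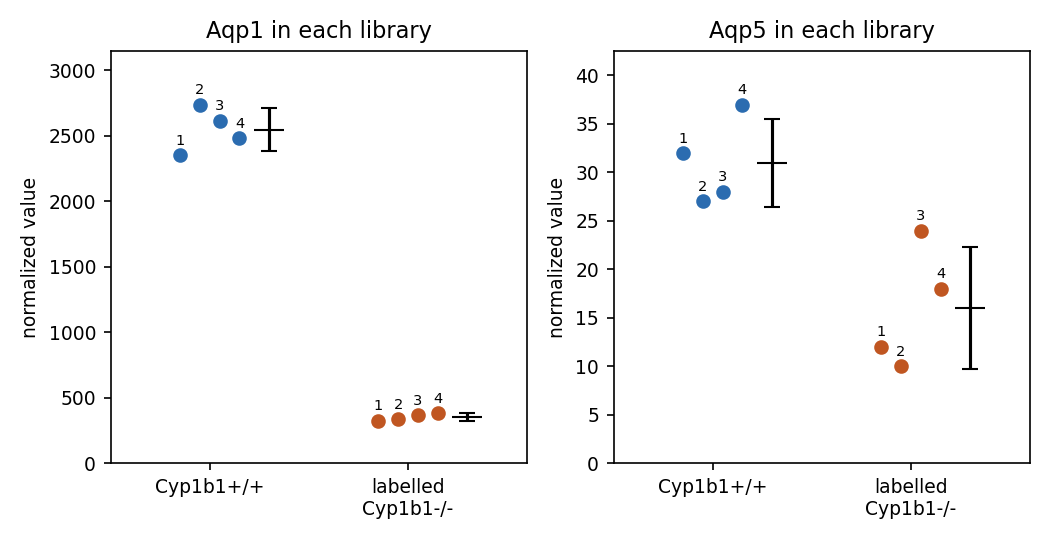
Normalized value (vertical axis, linear from 0) of Aqp1 and Aqp5 in each library, with points numbered by replicate and the group mean ± SD in black (n = 4 libraries). The Cyp1b1+/+ libraries sit at 2352 to 2737 for Aqp1 and 27 to 37 for Aqp5, and the libraries labelled Cyp1b1-/- at 323 to 382 and 10 to 24.

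The difference in Aqp1 stood near the edge of the distribution over all genes. Of 13575 genes, 80 had a more negative log2 difference and 152 a larger one in either direction. The median difference of all genes was 0.00 on the log2 scale (-0.00044). Non-overlap alone was common, since the groups did not overlap for 49.3% of all genes. Leaving out each library in turn moved the log2 difference of Aqp1 between -2.89 and -2.81. Replicate 2 labelled Cyp1b1-/-, the library that stood apart, was not exceptional for this gene, at 0.937 times the mean of the other libraries of its label.

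Read against other genes, Aqp1 lay in the upper tail of the transcriptome under the Cyp1b1+/+ label and in its middle under the other. Per kilobase of merged exons, its level averaged 969 ± 63.3 in the Cyp1b1+/+ libraries and 134 ± 10.5 in the libraries labelled Cyp1b1-/- (SD, n = 4 each). In the Cyp1b1+/+ libraries 92.8% to 94.1% of the 13553 annotated genes had a lower level per kilobase, which placed Aqp1 at ranks 804 to 982. In the libraries labelled Cyp1b1-/- the share was 52.2% to 56.7%, at ranks 5873 to 6478. Aqp1 RNA was thus still detected in every library labelled Cyp1b1-/-.

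The replicates of a label varied little beside that gap. The coefficient of variation of Aqp1 was 6.53% in the Cyp1b1+/+ libraries, where 1656 genes with means within 1.5-fold of it had a median of 3.57%. It was 7.84% in the libraries labelled Cyp1b1-/-, against a median of 6.24% over 2283 genes of like level.

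Aqp5 (ENSMUSG00000044217) lies on chromosome 15 from 99590782 to 99594829 on the plus strand, with 6 annotated transcripts and no other annotated gene overlapping it. It is at the bottom of the measured range. Cyp1b1+/+ replicates 1 to 4 read 32, 27, 28 and 37, and the normalized values were 12, 10, 24 and 18 in those labelled Cyp1b1-/-. The groups did not overlap, but they came close, since the lowest Cyp1b1+/+ library was only 1.125 times the highest of the others. Mean values were 31 ± 4.55 and 16 ± 6.32 (SD, n = 4 each), and the log2 difference was -0.98 (standard error 0.28, adjusted p = 0.0131 from limma over 13575 genes). An exact two-sided permutation test of the 8 values gave p = 0.0286, the smallest that 4 libraries against 4 can give.

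Aqp5 thus passed the test in the same direction as Aqp1 differed. Of all genes tested, 53.7% passed at an adjusted p under 0.05, 26.9% lower and 26.8% higher in the libraries labelled Cyp1b1-/-. With a change over 1.5-fold as well, the shares were 8.29% lower and 7.09% higher, and Aqp5 was among the lower ones. A more negative log2 difference than that of Aqp5 was found for 683 genes. Leaving out each library in turn kept the adjusted p of Aqp5 between 0.00431 and 0.0423 and its log2 difference between -1.19 and -0.79.

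**Figure D2:**
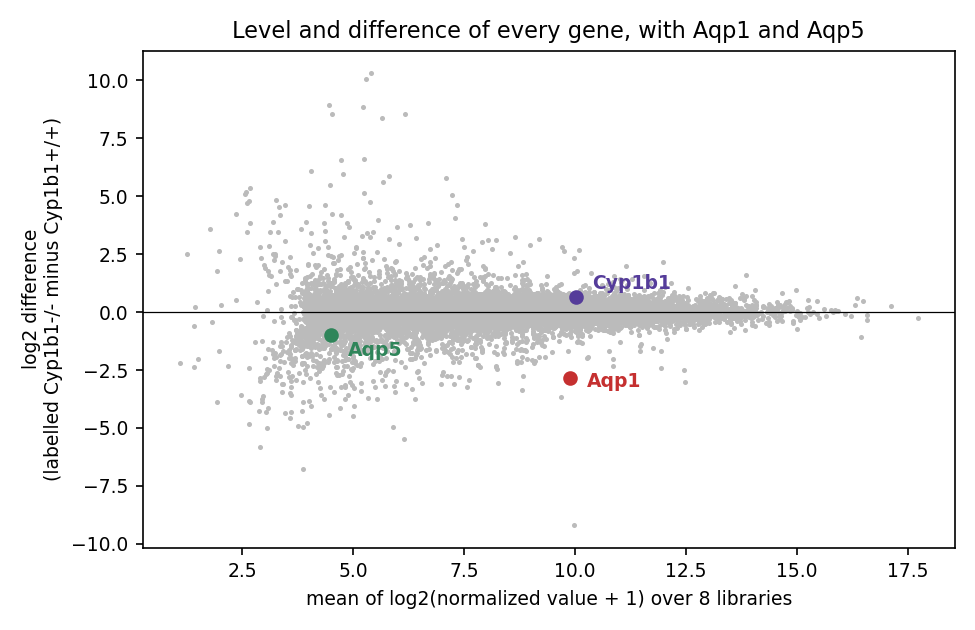
Mean of log2(normalized value + 1) over the 8 libraries (horizontal axis) against the log2 difference, labelled Cyp1b1-/- minus Cyp1b1+/+ (vertical axis), 1 grey point for each of 13575 genes. Aqp1 lies below the bulk of genes of its level at -2.85, Aqp5 lies in the low range at -0.98, and Cyp1b1 lies above 0 at 0.66.

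Of the 2 measured aquaporins, Aqp1 was the more abundant under both labels. Per kilobase of merged exons, Aqp5 had a level of 11.9 ± 1.75 in the Cyp1b1+/+ libraries and of 6.16 ± 2.43 in those labelled Cyp1b1-/- (SD, n = 4 each). Within a library, the Aqp1 level per kilobase was 66.4 to 100.3 times that of Aqp5 under the Cyp1b1+/+ label (median 82.5) and 15.2 to 33.1 times under the other label (median 23.8). With the longest Aqp5 transcript in place of merged exons, the same ratios ran from 45.9 to 69.3 and from 10.5 to 22.9. The ranges of the 2 labels did not overlap by either length. The ratio carries the Aqp1 difference by which that gene was chosen, so this gap is a description and was not tested.

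No row in the table used here stood for the other 9 aquaporin genes, which were not measured: Aqp2, Aqp3, Aqp4, Aqp6, Aqp7, Aqp8, Aqp9, Aqp11 and Aqp12. Mip, the water channel of lens fibres also called aquaporin 0, had no row either. They include Aqp4, the water channel of glial endfeet, and Aqp3, Aqp7 and Aqp9, which pass glycerol as well as water. Aqp2 and Aqp6 flank Aqp5 on chromosome 15, ending at 99584547 and starting at 99601400. The authors removed genes of low abundance before the table was made, and a level in these libraries cannot be given for a gene without a row.

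The genes beside Aqp1 were examined to see whether the difference extended along the chromosome. Among the 5 measured genes on each side, 3 fell in the libraries labelled Cyp1b1-/-, none rose (0 also at an unadjusted p under 0.05, limma) and 7 did not pass the test. The nearest measured gene downstream fell: Adcyap1r1, the receptor of the neuropeptide PACAP, whose start is 115.5 kb from that of Aqp1. Its normalized value was 30, 28, 32 and 27 in the Cyp1b1+/+ libraries and 11, 3, 11 and 6 in the others, without overlap. The log2 difference was -1.92 (standard error 0.36, adjusted p = 0.00123, limma).

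On the upstream side, the 2 other genes that fell were Nod1, an intracellular sensor of bacterial peptidoglycan, and Ggct, an enzyme of glutathione breakdown. Nod1 went from 310.0 ± 17.6 to 190.8 ± 18.5 (SD, n = 4 each; log2 difference -0.70, adjusted p = 4.61e-05, limma), at -412.5 kb from Aqp1. Ggct went from 104 ± 10.2 to 81.3 ± 3.69 (log2 difference -0.35, adjusted p = 0.0129, limma), at -353.9 kb. Between them and Aqp1 lie Gars, a tRNA synthetase, at a log2 difference of -0.04, and Mindy4, a deubiquitinase and the closest measured gene upstream, at -0.03, and neither passed.

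The remaining neighbours gave no call. Znrf2, at -519.5 kb from Aqp1, had a log2 difference of 0.02, and Ccdc129, 500.5 kb after it, one of -0.53 with an adjusted p of 0.267 (limma). Lsm5, Avl9 and Kbtbd2, all more than 1000 kb downstream, lay between -0.05 and 0.04. Read against the 26.9% of all genes that fell, 3 of 10 neighbours is close to the background. Gars passed, at -0.11, when replicate 2 labelled Cyp1b1-/- was left out (adjusted p = 0.00917, limma), because it stood at 7770 there and at 6352 to 6422 in the others of its label. The span held 29 annotated genes, 17 of them protein-coding, of which 11 including Aqp1 were measured.

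**Figure D3:**
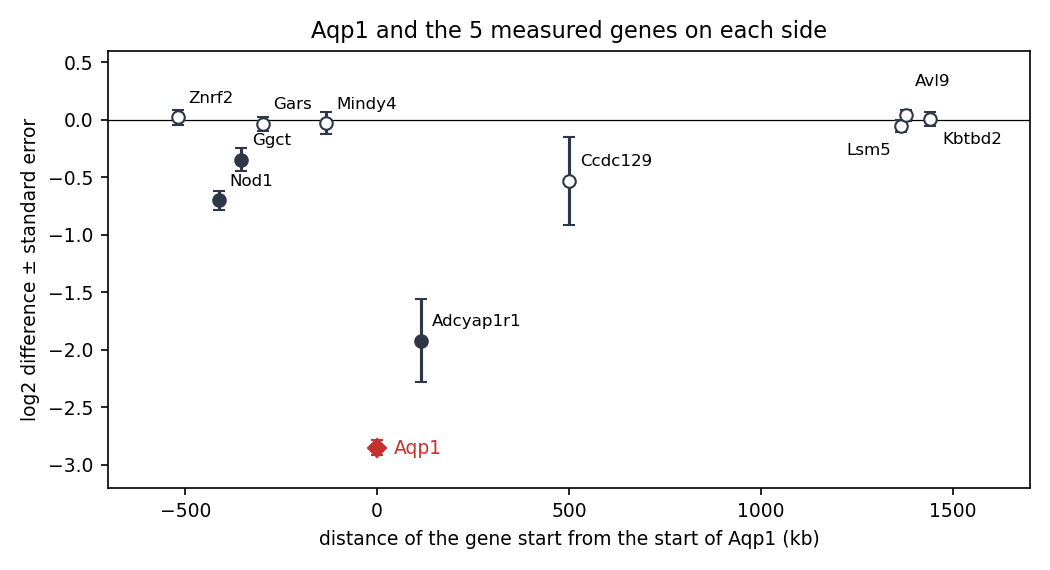
Log2 difference ± standard error (vertical axis) of Aqp1 (red diamond) and of the 5 measured genes on each side, by distance of the gene start from that of Aqp1 in kb (horizontal axis). Filled circles passed an adjusted p under 0.05, and only Adcyap1r1 at -1.92, Nod1 at -0.70 and Ggct at -0.35 did so among the 10 neighbours.

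The genes that work with aquaporins were then read from 7 lists with 85 measured genes. In the libraries labelled Cyp1b1-/- 26 rose, 29 fell and 30 did not pass the test, and their median log2 difference was -0.06. The calls made up 64.7% of these genes, 30.6% higher and 34.1% lower, beside 53.7%, 26.8% and 26.9% of all genes. Changes over 1.5-fold were fewer, with 9 of the 85 genes higher and 10 lower, beside 7.09% and 8.29% of all genes.

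The dystrophin complex anchors AQP4 at glial endfeet. Of its 13 measured genes, 6 rose (of all genes, 26.8%), 1 fell (of all genes, 26.9%) and 6 did not pass. Their median log2 difference was 0.03. Dtnb, which encodes β-dystrobrevin, had normalized values of 648, 618, 618 and 647 in the Cyp1b1+/+ libraries and 1059, 989, 1073 and 1028 in those labelled Cyp1b1-/-. Its log2 difference was 0.71 (standard error 0.04, adjusted p = 3.12e-07, limma), and it was the only gene of the list that passed the test with a change over 1.5-fold. Its relative Dtna rose by 0.34 on the log2 scale, utrophin (Utrn) by 0.35, and sarcospan (Sspn), a membrane protein of the complex, by 0.36. Dystrophin itself (Dmd) and dystroglycan (Dag1), the laminin receptor at its core, had log2 differences of 0.03 and -0.01 and did not pass. A second gene fell when a library was left out, Sgcd without replicate 2 labelled Cyp1b1-/- (log2 difference -3.24) and Agrn, an extracellular partner of dystroglycan, without Cyp1b1+/+ replicate 1. Kcnj10, the potassium channel that shares the endfoot with AQP4, and Mlc1 and Hepacam, both membrane proteins of astrocyte endfeet, had no row.

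The genes of cell volume regulation carry the ions that water follows, or act on such carriers as the kinase Oxsr1 does. All 18 were measured, and 11 fell, 2 rose and 5 did not pass, with a median log2 difference of -0.19. Of all genes, 26.9% fell and 26.8% rose. Only 2 volume genes, Lrrc8d and Kcnn4, passed with a change over 1.5-fold, and both fell. Lrrc8d, a subunit of the volume-regulated anion channel, was at 598, 634, 624 and 652 in the Cyp1b1+/+ libraries and at 356, 358, 355 and 384 in the others, a log2 difference of -0.79 (standard error 0.05, adjusted p = 4.92e-07, limma). Lrrc8c, another subunit, fell by 0.39, while the subunit Lrrc8b rose by 0.30. Kcnn4, a potassium channel opened by calcium, was at 48, 61, 63 and 63 and at 2, 8, 10 and 4, a log2 difference of -3.26 (standard error 0.38, adjusted p = 5.21e-05, limma). It was the only one of the 85 genes with a more negative log2 difference than Aqp1.

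Several volume genes changed little. Oxsr1, a kinase that acts on cation-chloride cotransporters, fell by 0.23 on the log2 scale. Piezo1, a stretch-activated channel and the most abundant gene of the list, fell by 0.19 with an adjusted p of 0.0455 (limma), a call that was lost on leaving out any library other than Cyp1b1+/+ replicate 1 and replicate 3 labelled Cyp1b1-/-. The number of volume genes that fell ran from 8 to 12 when each library was left out in turn.

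Osmotic response genes moved both ways. Of 9 measured, 3 rose (of all genes, 26.8%), 2 fell (of all genes, 26.9%) and 4 did not pass. Their median log2 difference was 0.10. Sgk1, a kinase that is induced by osmotic stress and glucocorticoids and acts on ion channels, was at 1811, 1718, 1757 and 1757 in the Cyp1b1+/+ libraries and at 5172, 5113, 5146 and 5023 in those labelled Cyp1b1-/-. This was a log2 difference of 1.54 (standard error 0.03, adjusted p = 1.48e-10, limma), the largest rise of the 85 genes. Slc5a3, which imports the osmolyte myo-inositol, rose by 0.30, whereas Akr1b3 (aldose reductase, which makes sorbitol) fell by 0.35 and the taurine transporter Slc6a6 fell by 0.19. Nfat5, the transcription factor of the tonicity response, was at 4880 ± 171 and 4999 ± 270 (SD, n = 4 each) and did not pass (log2 difference 0.03, adjusted p = 0.536, limma). The number that rose was 2 with equal column totals, where Hspa4l, a heat shock protein that osmotic stress induces, was lost. It was also the gene lost without Cyp1b1+/+ replicate 2, 3 or 4, or without replicate 1, 3 or 4 labelled Cyp1b1-/-.

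Of 13 genes of glycerol handling, all measured, 5 rose (of all genes, 26.8%), 2 fell (of all genes, 26.9%) and 6 did not pass. Their median log2 difference was 0.00 (0.0027). Those that fell were Gpd1l, related to the dehydrogenase that links glycerol 3-phosphate to glycolysis, at -0.70 (adjusted p = 7.38e-06, limma), and Dgat2, which completes triglycerides, at -0.67 (adjusted p = 1.74e-04, limma). Lipe, the hormone-sensitive lipase, rose by 0.35, and Gpam, which starts glycerolipid synthesis, rose by 0.23. Glycerol kinase (Gk), which traps imported glycerol, was at 1005 ± 49.1 and 1006 ± 10.9 (SD, n = 4 each) and did not pass. The number that rose was 3 rather than 5 with equal column totals, where the lipid droplet protein Plin2 and the lipase activator Abhd5 were lost. It was also 3 on leaving out Cyp1b1+/+ replicate 3 or 4, or replicate 1 labelled Cyp1b1-/-.

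Carbonic anhydrases and bicarbonate transporters act on CO2 and acid, and often sit beside AQP1 in fluid-moving epithelia. Of 11 measured genes of 20, 2 rose (of all genes, 26.8%), 4 fell (of all genes, 26.9%) and 5 did not pass. Their median log2 difference was -0.09. The mitochondrial enzyme Car5b rose, from 547, 538, 505 and 536 to 1281, 1082, 1231 and 1229 (log2 difference 1.18, standard error 0.05, adjusted p = 9.15e-08, limma). The cytosolic enzyme Car13 fell by 0.96, the sodium-driven bicarbonate exchanger Slc4a8 fell by 1.12 and the anion exchanger Slc4a2 fell by 0.54. Slc4a7, a sodium bicarbonate cotransporter and the most abundant gene of the list, did not pass (log2 difference 0.07). Car2, Car4 and Car14, the best known isoforms of fluid-secreting tissue and Müller cells, had no row.

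The Na,K-ATPase sets the sodium gradient behind most fluid transport. Only 4 of 12 genes were measured and all 4 passed, with 3 lower and 1 higher. Of all genes, 53.7% passed, 26.9% lower and 26.8% higher. Fxyd5, a small regulator of the pump, was at 365, 363, 349 and 341 in the Cyp1b1+/+ libraries and at 88, 67, 90 and 71 in the others, without overlap. Its log2 difference was -2.16 (standard error 0.10, adjusted p = 1.04e-07, limma). The subunit Atp1b3 fell by 0.22 on the log2 scale, while the subunit Atp1b1 rose by 0.71. Atp1b2, a subunit typical of astrocytes, had no row.

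The last list holds proteins that move aquaporins to and from the membrane, a role known mainly for AQP2 in kidney cells, with the cyclic AMP pathway that drives it. Of 17 measured genes of 20, 7 rose (of all genes, 26.8%), 6 fell (of all genes, 26.9%) and 4 did not pass. Their median log2 difference was 0.02. Ezr (ezrin), which ties membrane proteins to actin, was at 3567, 3595, 3586 and 3513 in the Cyp1b1+/+ libraries and at 6517, 6449, 6610 and 6519 in the others, a log2 difference of 0.87 (standard error 0.03, adjusted p = 3.76e-09, limma). Vta1, a protein of multivesicular body sorting, rose by 0.74 and Rab11fip2, an effector of recycling endosomes, rose by 0.66. Akap12, an anchor of protein kinase A and the most abundant gene of the list, fell by 0.77.

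**Figure D4:**
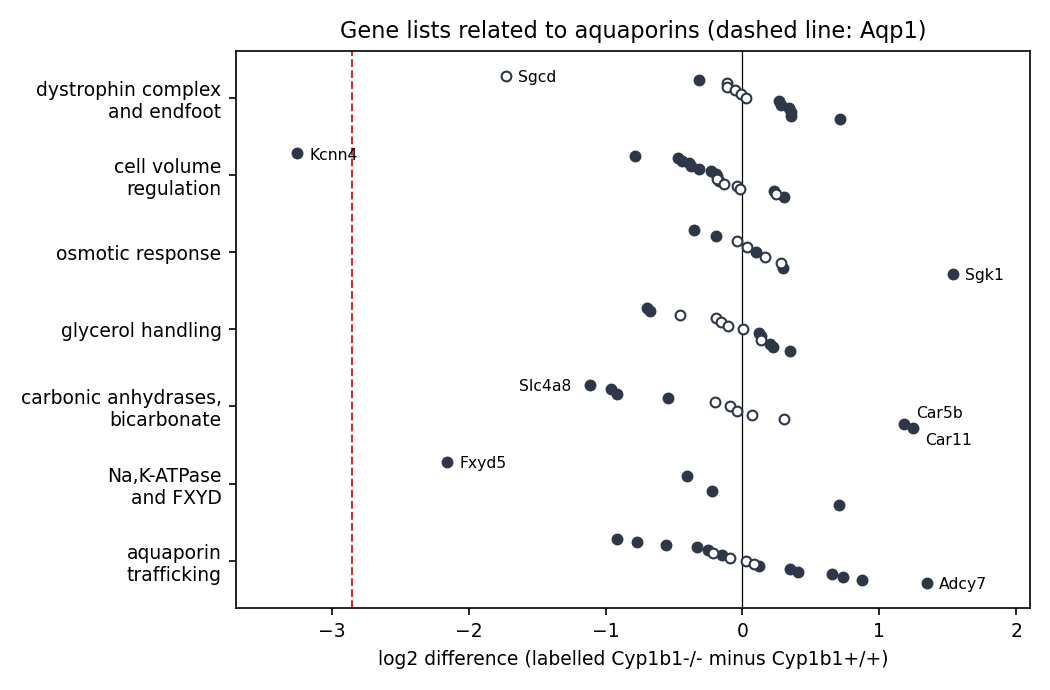
Log2 difference, labelled Cyp1b1-/- minus Cyp1b1+/+ (horizontal axis), of the 85 measured genes of 7 lists related to aquaporins, 1 row of points a list. Filled points passed an adjusted p under 0.05, open points did not, the dashed line is Aqp1 at -2.85, and Kcnn4 at -3.26 is the only gene to its left.

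The genes whose values most resembled those of Aqp1 over the 8 libraries were found by the root-mean-square difference of log2(value + 1) profiles, each centred on its own mean, over 13566 genes with a mean of at least 10. The median gene was 1.44 from Aqp1 on the log2 scale. Pseudogenes and gene models with a Gm or Rik symbol were set aside before the 6 nearest were taken. Those among the 6 nearest that are reported here were Hhip at 0.08, Trim30d at 0.14, Pear1 at 0.15, and Lce1g and Map2, both at 0.16. Aqp5 was at 0.99, rank 647 over all 13566 genes, with none set aside. Genes with a similar genotype difference are near by construction, so no test is given.

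Hhip, a membrane-bound antagonist of hedgehog ligands, followed Aqp1 most closely. Its normalized value was 517, 598, 537 and 536 in the Cyp1b1+/+ libraries and 60, 67, 73 and 83 in the others. Like Aqp1, it was highest in replicate 2 of the first group and lowest in replicate 1 of the second. Pear1, a receptor of platelets and endothelium, was at 998 to 1261 and 153 to 209, and Map2, a microtubule protein of neurons, was at 269 ± 10.3 and 32 ± 5.94 (SD, n = 4 each). Without replicate 2 labelled Cyp1b1-/-, only 2 of the 6, Hhip among them, stayed in the first 6. The 5 genes named here kept their order relative to each other, and their distances from Aqp1 stayed between 0.08 and 0.17.

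**Figure D5:**
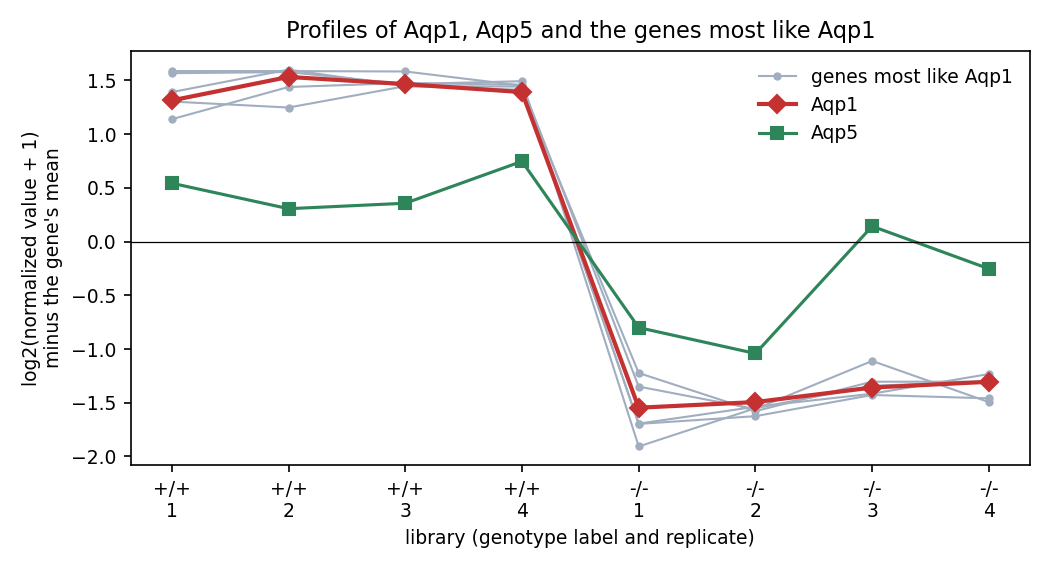
Log2(normalized value + 1) minus the mean of the gene over 8 libraries (vertical axis), by library with its genotype label and replicate (horizontal axis), for Aqp1, Aqp5 and, in grey, genes among the 6 nearest to Aqp1 (Hhip, Trim30d, Pear1, Lce1g, Map2). Aqp1 and the grey lines step down between the labels by nearly 3 log2 units, and Aqp5 by 0.98.

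Markers of other cells that can carry AQP1 were set beside its level. Of 8 erythroid markers, which include globins, none had a row. Of 12 endothelial markers, 4 were measured, and Pecam1 and Cdh5 had no row. The endothelial sum ran from 325 to 388 under the Cyp1b1+/+ label and from 284 to 318 under the other, and Kdr, a receptor of VEGF, was the only one that fell, by 0.40. Of 12 markers of pigment epithelium, ciliary body and choroid plexus, 3 were measured, Rpe65 and Ttr had no row, and their sum was 257 to 297 and 142 to 199. This sum was mostly Folr1, which fell by 0.87 on the log2 scale, while Pmel did not pass. Mitf fell by 0.71 with groups that overlapped, a call lost on leaving out some single libraries. Of 12 neuron and photoreceptor markers, 4 were measured, and Crx had no row. Their sum was 2868 to 3039 and 2837 to 4011, or 2837 to 2946 without replicate 2 labelled Cyp1b1-/-. Tfap2b fell by 1.13 on the log2 scale and Slc6a9 by 0.17, Tfap2a rose by 0.33, and Tubb3 did not pass. Of 9 corneal and lens markers, 2 were measured, Krt12 and Kera had no row, and their sum was 1398 to 1468 and 1509 to 1608. It was mostly Pax6, which rose by 0.22 on the log2 scale, while Slc4a11 fell by 0.89. Most markers of each of these lists had no row, so the sums are no measure of these cells, and their part in the Aqp1 difference was not tested.

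Other marker lists were read in the same way. Of 10 Müller cell markers, 4 were measured, Rlbp1 had no row, and their sum ran from 6514 to 7101 under the Cyp1b1+/+ label and from 3595 to 3858 under the other. Most of this gap was Dkk3, at a mean of 4597 and 1789, and Apoe fell as well, while Glul, at 1664 and 1633, and Rdh10 did not pass. For 9 Schwann cell and oligodendrocyte markers, 2 were measured, Sox10 had no row, and the sum was 244 to 288 and 61 to 81, mostly Mbp. For 9 microglial markers, 2 were measured, Aif1 and Cx3cr1 had no row, and the sum was 75 to 96 and 39 to 52. The 7 measured astrocyte markers summed to 75782 to 82185 and 100597 to 131732, nearly all of it Vim. Of these markers 2 rose, 1 fell and 4 did not pass. Vim rose by 0.46 on the log2 scale and Gja1 by 0.95, or by 0.61 without replicate 2 labelled Cyp1b1-/-. The 1 that fell was Pax2, a factor of the astrocyte lineage, at 28 to 39 and at 0 to 1. Of 10 pericyte and smooth muscle markers, 4 were measured, Rgs5 and Cspg4 had no row, and their sum overlapped, at 22441 to 26916 and 24520 to 36246, or 24520 to 26344 without replicate 2 labelled Cyp1b1-/-. It was nearly all Acta2, which did not pass, while Notch3 fell by 1.39, Pdgfrb fell by 1.00 and Cnn1 rose by 1.25 on the log2 scale. Of 9 fibroblast markers, 4 were measured, and their sum was 3851 to 4990 and 3094 to 174580, or 3094 to 3516 without replicate 2 labelled Cyp1b1-/-. Among them, Col3a1 was at 770, 946, 936 and 902 in the Cyp1b1+/+ libraries and at 46, 6407, 73 and 62 in the others. It did not pass with all libraries, and fell when that replicate was left out (log2 difference -3.88, adjusted p = 4.10e-11, limma). Col1a1 then fell by 0.29, while Col1a2 and Fbln1 did not pass. The part of any of these cell types in the Aqp1 difference was not tested.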

How the data were processed

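Gene-level RNA-seq values of 8 retinal AC libraries were used. Per the labels and the study's methods, the authors converted reads with bcl2fastq 2.20, aligned them with STAR 2.5.3a to GRCm38.p6, estimated gene counts with RSEM, removed genes of low abundance, normalized by TMM and fitted edgeR 3.28.0. The score of a gene, as deposited by the authors, is its TMM-normalized count rounded to a whole number, so count models were not applied. Columns of the authors' comparison (log2 fold change, likelihood ratio, p-value, FDR) were not used. The labels name the mirVana PARIS kit for RNA and the methods RNeasy. Raw depth is known only as an average per label, not for each library.

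Values were tested on log2(value + 1) with limma 3.58.1 (mean-variance trend, R 4.3.3), all 8 libraries and no covariate, with Benjamini-Hochberg adjustment over 13575 genes. On simulated data the fit was checked before use. Aqp1 and the genes like it were not tested. Lists were described by counts and medians. The members and lists were chosen with earlier results of these data known. Alternatives were pseudocounts of 0.5 and 0.1, median-ratio scaling, equal column totals, a minimum of 10 in every library, the replicate number as a block, and leaving out each library.

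The text names Cyp1b1, both aquaporins, per list up to 4 members with the smallest p and the most abundant one, the 10 neighbours of Aqp1 and the 6 genes nearest in profile, and in marker lists the 3 most abundant members. Xist, Ddx3y and other genes named outside this rule (Lrrc8b, Hspa4l, Abhd5, members at 0 difference and markers) were chosen after their values were seen. A few genes under this rule are left unreported. Coordinates, lengths and neighbours come from GENCODE M21 on GRCm38 for 13553 genes, since the table gives none, and start windows from RefSeq. Python 3.11.15, numpy 2.4.6, pandas 2.3.3, scipy 1.17.1 and matplotlib 3.10.9 were used.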

Additional observations from a re-analysis of the deposited data

Results flagged for a closer look

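Within a label, 1 library can lie far from the other 3. Dixon's ratio for 4 samples was applied to 154 groups of named genes, of which chance flags about 5%, and it marked 18. Neither aquaporin was among them.

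Replicate 2 labelled Cyp1b1-/- accounted for 8 of these. It was the highest of its label for Gja1 at 3124 (others 1180 to 1232), Acta2 at 34943 (23895 to 25712), Pdgfrb at 738 (301 to 361), Col1a1 at 122121 (1643 to 1843), Col1a2 at 44444 (210 to 230), Tubb3 at 2198 (1084 to 1104), and the Aqp1 neighbours Gars at 7770 (6352 to 6422) and Kbtbd2 at 1223 (1012 to 1040).

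Cyp1b1+/+ replicate 1 was the lowest of its label for Dtna at 829 (870 to 874), Kcnn4 at 48 (61 to 63), Slc4a8 at 167 (177 to 178), Kdr at 191 (222 to 228) and Pear1 at 998 (1229 to 1261), and the highest for Lipe at 154 (126 to 130) and Acta2 at 25862 (21320 to 21907). Trim30d was lowest in Cyp1b1+/+ replicate 4 at 345 (378 to 379). Among the libraries labelled Cyp1b1-/-, Lrrc8d was highest in replicate 4 at 384 (355 to 358) and Glul in replicate 1 at 1725 (1591 to 1607).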

How the results depend on the processing

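The log2 difference of Aqp1 stayed between -2.88 and -2.85 over the 6 alternatives of scaling, pseudocount, filter and block, and that of Aqp5 between -1.02 and -0.97 with an adjusted p of 0.00947 to 0.0198 (limma). Over all alternatives, 22 to 27 genes of the related lists rose and 25 to 32 fell, and 2 to 4 neighbours of Aqp1 fell, 2 with the minimum of 10, which removed Adcyap1r1, and 4 without replicate 2 labelled Cyp1b1-/-. Of the 6 genes nearest to Aqp1 in profile, 2 remained without replicate 2 labelled Cyp1b1-/-. Among 69 named genes, 16 changed a call or sign under some alternative. With equal column totals Znrf2 turned to -0.0050 and Kbtbd2 to -0.017. On leaving out single libraries, log2 differences ran through 0 for Glul (-0.054 to 0.0022), Esam (-0.082 to 0.025), Flt1 (-0.063 to 0.35), Fbln1 (-0.039 to 0.11), Col1a1 (-0.29 to 1.78), Znrf2 (-0.014 to 0.069), Mindy4 (-0.086 to 0.036) and Kbtbd2 (-0.055 to 0.039). The lowest value of Col1a1 was that without replicate 2 labelled Cyp1b1-/- (adjusted p = 0.0191, limma).

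Replicate numbers are shared between the labels but did not pair the libraries, since deviations of same-numbered libraries correlated at -0.023 to -0.0045 over genes. With the replicate number as a block, 3543 genes rose and 3562 fell, against 3636 and 3649 without it, and Aqp5 had an adjusted p of 0.0198 (limma). The block ended the call of the marker Mitf (adjusted p = 0.0672, limma). Low values such as those of Aqp5 and Kcnn4 are rounded to whole numbers and their counting error is not known.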

Other observations

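Some genes of the related lists had an exceptional value in replicate 2 labelled Cyp1b1-/-, and they were chosen after their values were seen. Sgcd, a sarcoglycan of the dystrophin complex, was at 470 there and at 6, 8 and 5 in the other libraries of its label, against 79, 67, 59 and 65 in the Cyp1b1+/+ libraries. Lrrc8a, the obligatory subunit of the volume-regulated anion channel, was at 729 there, at 379, 379 and 374 in the others of its label and at 486 to 537 in the Cyp1b1+/+ libraries. Neither passed the test with all libraries, and both fell when that library was left out (log2 differences -3.24 and -0.43, adjusted p = 5.31e-08 and 1.48e-05, limma). Aqp1 and Aqp5 were at 335 and 10 in the same library.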
